A study of Rattus norvegicus with 6 samples.

Results

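Calpains are cysteine proteases that calcium switches on, and calpastatin is their inhibitor. The genes described here are 9 listed members of this system, namely the calpain genes Capn1, Capn2, Capn3, Capn5, Capn6, Capn7 and Capn10, the small subunit gene Capns1 and the calpastatin gene Cast. They were found on the array as the probes whose RefSeq accession belongs to 1 of these genes, which gave 12 probes among 30367, with 1 probe for 6 genes and 2 probes each for Capn2, Capn5 and Cast. They are 9 of 15168 genes matched to a probe. The list was chosen by gene family and with the scaled log2 intensities of the si-uc.323 and si-scramble arrays already known, so the members' differences between these groups are given as a description.

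Gene expression was measured on 1-colour Agilent arrays in primary ventricular myocytes from newborn rats (Sprague-Dawley, male, aged 1 to 2 days). The tested cultures received si-uc.323, a small interfering RNA against uc.323, a transcribed ultraconserved region studied in cardiomyocyte hypertrophy, and the control cultures received a scrambled siRNA, si-scramble. Each siRNA was given at 50 nmol/L for 3 h after 36 h of culture, and all cells were then kept without serum for 21 h, so that both groups carry the transfection and the serum withdrawal. Each group had 3 cultures with 1 array each, described as independent experiments without naming the litters, so the errors measure the spread between these samples. Preplating and bromodeoxyuridine in the medium were used against fibroblasts. The strand given for si-uc.323 is printed without its dTdT end, because this siRNA is what set the groups apart.
si-uc.323, 5′ to 3′, 19 bases: gguaaguaauuucagcaau
No probe was matched to uc.323, so the knockdown itself was not checked here.

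Calpains cut their substrates at a few sites rather than degrading them, and in heart muscle they are known to act on cytoskeletal, sarcomeric and junctional proteins when calcium is high. Capn1 and Capn2 encode the large subunits of the classical calpains, each of which pairs with the small subunit encoded by Capns1, and calpastatin blocks both enzymes. Capn3 is the calpain of skeletal muscle, and Capn5, Capn6, Capn7 and Capn10 are atypical members without the calcium-binding domain that holds the small subunit.

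Promoter sequences were taken from RefSeq on build GRCr8 for 7 of the 9 genes; Capn1 and Capn5 were not matched. The 250 bases before the annotated start are printed for Capn6, Cast and Capns1, the shared subunit. The Capn6 probe and the dimmer of the 2 Cast probes differed most between the groups, while the brighter Cast probe differed by -0.13. Capitals mark GGGCGG and CCAAT, each searched on both strands.
Capn6, chrX:112202179-112202428, minus strand: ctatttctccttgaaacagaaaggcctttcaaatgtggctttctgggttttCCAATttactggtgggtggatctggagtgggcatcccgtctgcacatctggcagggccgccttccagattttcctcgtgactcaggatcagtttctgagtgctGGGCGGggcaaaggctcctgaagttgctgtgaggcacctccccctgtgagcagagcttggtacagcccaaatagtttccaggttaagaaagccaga
Cast, chr2:5816987-5817236, minus strand: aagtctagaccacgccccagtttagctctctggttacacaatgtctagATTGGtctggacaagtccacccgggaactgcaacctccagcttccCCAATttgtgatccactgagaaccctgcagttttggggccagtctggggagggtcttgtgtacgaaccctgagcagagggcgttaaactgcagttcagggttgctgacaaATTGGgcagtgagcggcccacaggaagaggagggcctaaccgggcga
Capns1, chr1:94582222-94582471, minus strand: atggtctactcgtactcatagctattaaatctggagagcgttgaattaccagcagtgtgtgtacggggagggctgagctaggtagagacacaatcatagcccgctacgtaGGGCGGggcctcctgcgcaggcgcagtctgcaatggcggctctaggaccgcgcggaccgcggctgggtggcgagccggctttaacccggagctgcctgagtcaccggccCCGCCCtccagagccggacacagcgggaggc
The Capns1 promoter had 63.2% G and C with 21 CpG dinucleotides, Cast had 55.6% with 7, and Capn6 had 52.4% with 4, beside medians of 51.2% and 5 over 33469 rat promoters of the same length. GGGCGG occurred in the promoters of Capns1 (2 matches), Capn7 (4) and Capn6 (1), 3 of 7, and in 30.5% of all promoters. CCAAT occurred in 5 of 7, with 3 matches in Cast, and in 34% of all promoters. TATAAA (12.9% of all promoters) and CACGTG (5.59%), also searched on both strands, had no match in the 7 windows. The promoter of Capn7 was the richest in G and C of the 7 (72.8%, with 27 CpG) and that of Capn3 the poorest (45.2%, with 4).

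The arrays differed in brightness. The share of probes that exceeded background clearly was 78.2% and 86.5% on the 2 arrays of 1 scan identifier, called slide 2 here, and 71.8% to 73.9% on the 4 arrays of the other, slide 1. Slide 1 held si-uc.323 replicate 1 and all si-scramble arrays, and slide 2 held si-uc.323 replicates 2 and 3, so a difference within a slide rests on si-uc.323 replicate 1. All 10 cardiomyocyte markers were well above background on all 6 arrays, with a summed intensity of 26158 to 28168% of the array's 75th percentile with si-uc.323 and 29578 to 30746% with si-scramble. Of 9 fibroblast markers 8 were above background on all arrays, with sums of 12561 to 15706% with si-uc.323 and 12355 to 13368% with si-scramble. Values below are intensities as a percentage of the 75th percentile of their array, by which each array was scaled; levels of different probes are not comparable with one another.

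No calpain or calpastatin probe passed the test of the fit over the whole array. Of 12 probes, 10 from 8 genes were well above background on all 6 arrays and were fitted, and 0 of these 10 had an adjusted p below the threshold of 0.05 (limma, Benjamini-Hochberg adjustment over 21994 probes). By the same rule 1295 of the 21994 probes were called, 5.89%, with 766 higher (3.48%) and 529 lower (2.41%) in si-uc.323. With a shift of each array to 1 median, that split turned to 516 higher and 836 lower. At an unadjusted p under 0.05 there were 2 of the 10 probes, 1 each of Cast and Capn6, beside 28.3% of all probes. The contrast belongs to how the genes were listed, so nothing is read from these shares. The log2 difference was positive for 5 probes and negative for 5, with a median of 0.06, the same as the median of all fitted probes, 0.06. The median size of the difference, whatever its sign, was 0.22 for the 10 probes and 0.23 for all fitted probes. Fewer cells of a type and less RNA per cell cannot be told apart in such bulk samples.

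**Figure D1:**
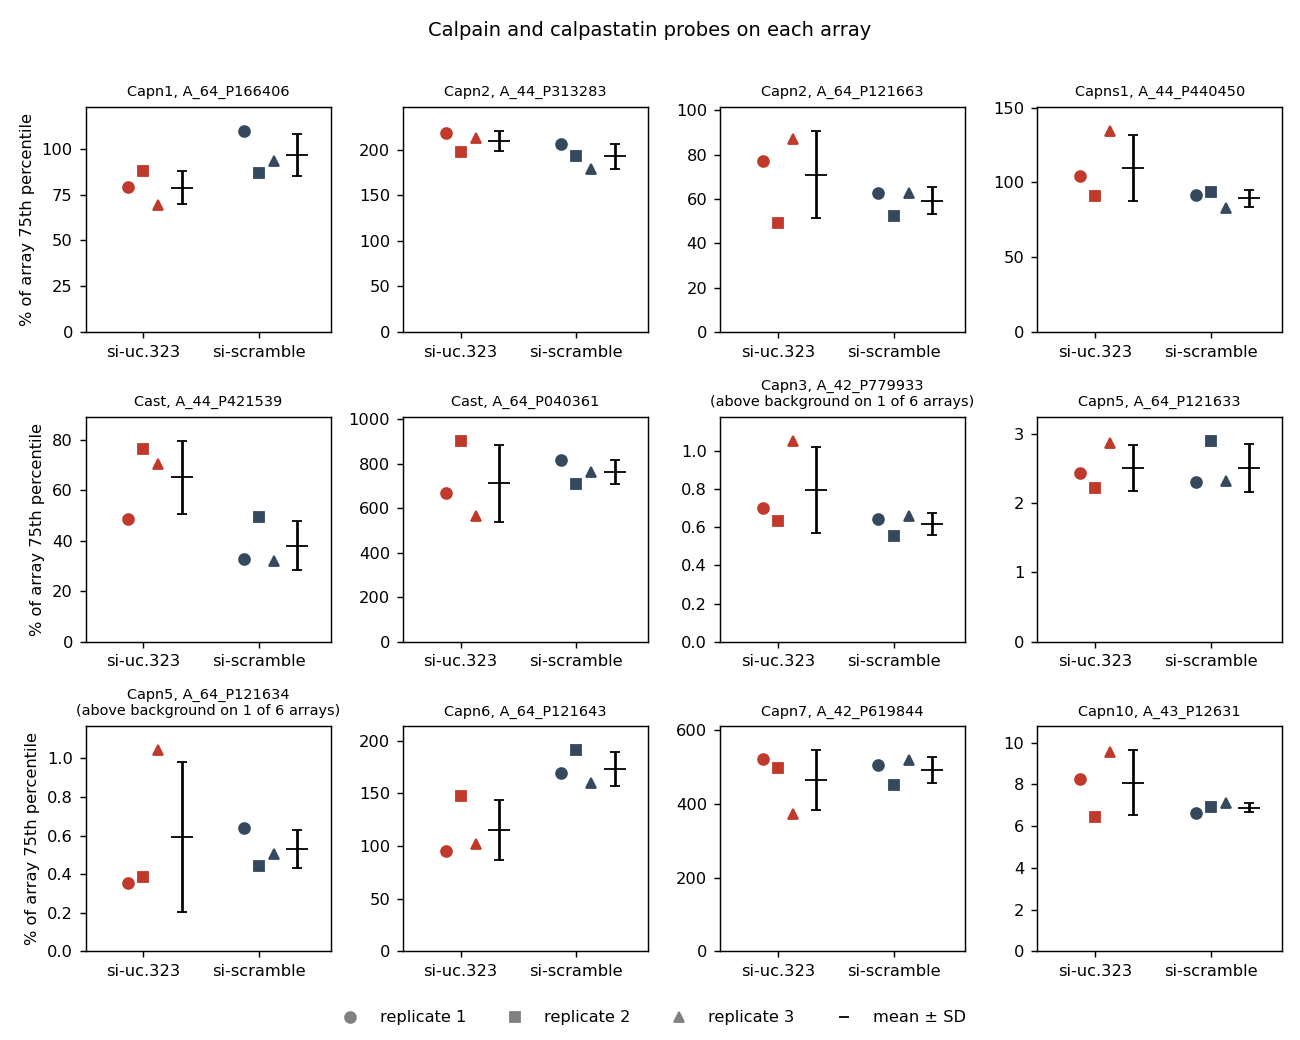
Intensity of each of the 12 probes on each array, as a percentage of the array's 75th percentile, with si-uc.323 in red and si-scramble in dark blue, 1 symbol per replicate and the mean ± SD (n = 3) beside the points. The groups overlap in all fitted panels except that of Capn6, where the si-uc.323 arrays lie at 95.3 to 148% and the si-scramble arrays at 159.9 to 191%.

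Among the classical calpains, the large subunit Capn1 read 79.3, 87.7 and 69.4% of the 75th percentile on si-uc.323 replicates 1, 2 and 3, and 109.6, 86.9 and 93.2% on the si-scramble replicates. All si-uc.323 values but 1 lay below every si-scramble value, and the groups overlapped by less than 1 percentage point. Its means were 78.8 ± 9.14% with si-uc.323 and 96.6 ± 11.7% with si-scramble (SD, n = 3 each), a log2 difference of -0.29 ± 0.14 (SE; 95% interval -0.63 to 0.04). Without si-uc.323 replicate 2 it was -0.37 ± 0.14, without si-uc.323 replicate 3 -0.205 ± 0.13, and without si-scramble replicate 1 -0.20 ± 0.16. Over the 20 alternatives it lay between -0.43 and -0.20. Several of these leave the difference of a gene with 1 probe unchanged by design, so nothing is read from its constant sign.

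Capn2, the other large subunit, had 2 probes for the same transcript. The probe A_44_P313283 read 218, 197 and 213% on the si-uc.323 arrays and 206, 193 and 179% on the si-scramble arrays, a log2 difference of 0.12 ± 0.11 (SE; 95% interval -0.14 to 0.38). This was among the most even probes of the 12, with a coefficient of variation of 5.18% in si-uc.323 and 6.96% in si-scramble. The dimmer probe, A_64_P121663, read 76.95, 49.0 and 86.9% with si-uc.323 and 62.9, 52.3 and 62.5% with si-scramble. Its si-uc.323 values spread on both sides of the control values, and the difference was 0.22 ± 0.22 (95% interval -0.29 to 0.74). The probes thus had the same sign with all arrays, and both intervals included 0. With the shift to 1 median the brighter probe read -0.01, and that setting moved the median of all fitted probes to -0.08.

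Capns1, whose protein both classical calpains need for stability, read 104, 90.7 and 134% with si-uc.323 and 91.4, 93.6 and 82.85% with si-scramble. The si-uc.323 replicate 3 array was highest, and replicate 2 lay within the range of the controls. The log2 difference was 0.28 ± 0.16 (SE; 95% interval -0.10 to 0.66). It was 0.22 for the array on slide 1 and 0.02 and 0.59 for replicates 2 and 3, each set against the si-scramble mean.

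Cast, the inhibitor, gave different values on its 2 probes, both assigned to NM_053295. The dimmer probe, A_44_P421539, read 48.7, 76.3 and 70.4% on si-uc.323 replicates 1, 2 and 3, and 32.9, 49.5 and 32.0% on the si-scramble replicates. Only si-uc.323 replicate 1 fell within the range of the controls, just under si-scramble replicate 2. Its means were 65.2 ± 14.5% with si-uc.323 and 38.1 ± 9.82% with si-scramble (SD, n = 3 each), a log2 difference of 0.78 ± 0.23 (SE; 95% interval 0.23 to 1.32) that did not pass the adjusted test. The brighter probe, A_64_P040361, read 668, 904 and 566% with si-uc.323 and 820, 712 and 764% with si-scramble. The si-uc.323 arrays held both the highest and the lowest value of this probe, and its difference was -0.13 ± 0.18 (95% interval -0.55 to 0.30).

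The log2 value of the dimmer Cast probe minus that of the brighter one, taken within each array, was -3.78, -3.57 and -3.01 on the si-uc.323 arrays and -4.64, -3.85 and -4.57 on the si-scramble arrays. These differences did not overlap between the groups, and their means were -3.45 with si-uc.323 and -4.35 with si-scramble, 0.90 apart. How often such differences fail to overlap over all probe pairs of the array was not computed. For single probes, groups did not overlap in 35.4% of all fitted probes, so nothing is read from the Cast pair. The smallest gap lay between si-uc.323 replicate 1 and si-scramble replicate 2. For Capn2 the same within-array difference between probes averaged 1.60 with si-uc.323 and 1.71 with si-scramble, and the groups overlapped. RefSeq lists several Cast transcripts for the rat, and which of them each probe detects was not analysed here. Whether the 2 Cast probes changed unequally was not tested, and a difference between 2 probes of an array does not tell which of them changed. On slide 1 alone the dimmer Cast probe differed by 0.38, a smaller difference than the 0.78 over all arrays, and the brighter one by -0.19.

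**Figure D2:**
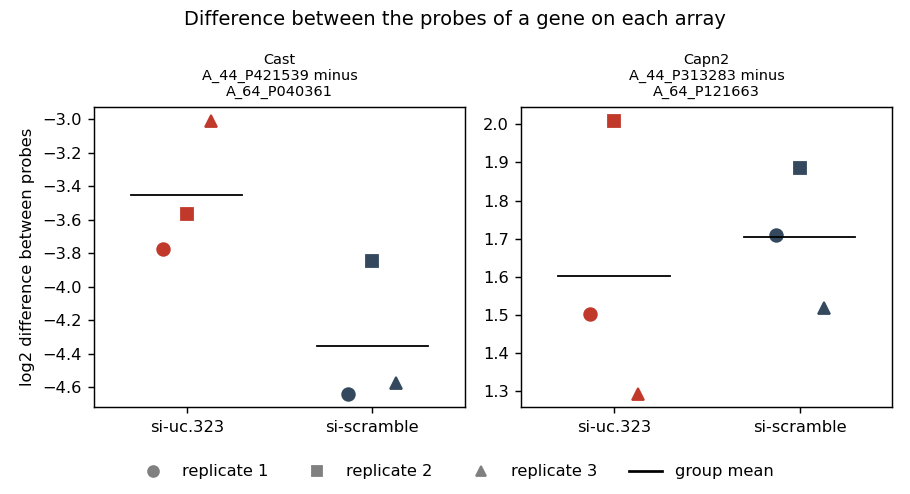
Log2 value of 1 probe minus that of the other probe of the same gene on each array, for Cast on the left and Capn2 on the right, with si-uc.323 in red, si-scramble in dark blue, 1 symbol per replicate and a line at each group mean. For Cast the group means are -3.45 with si-uc.323 and -4.35 with si-scramble and the groups do not overlap, while for Capn2 they do. The share without overlap over all probe pairs of the array was not computed.

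Capn6 was the 1 fitted member whose groups did not overlap. In the mouse its protein is known to bind and stabilise microtubules, and it lacks the cysteine that a calpain needs to cut. The probe A_64_P121643 read 95.3, 148 and 102% on si-uc.323 replicates 1, 2 and 3, and 169, 191 and 159.9% on the si-scramble replicates. All si-uc.323 arrays lay below all si-scramble arrays, with replicate 2 nearest to them; groups did not overlap in 35.4% of all fitted probes and lay lower without overlap in 15.8% and higher in 19.7%. Its means were 115 ± 28.6% with si-uc.323 and 173 ± 15.9% with si-scramble (SD, n = 3 each), a log2 difference of -0.62 ± 0.18 (SE; 95% interval -1.05 to -0.18).

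The Capn6 difference was -0.86, -0.23 and -0.76 on si-uc.323 replicates 1, 2 and 3 set against the si-scramble mean. Replicate 1 is the only si-uc.323 array on slide 1, so the slide block also gave -0.86, and it rests on that array. The part of the slide in the Capn6 values was not tested. The Capn6 difference did not pass with all arrays (adjusted p = 0.0888 from limma). It passed without si-uc.323 replicate 2, where it was -0.81 ± 0.12 (adjusted p = 0.0256 from limma). Over the 20 alternatives it lay between -0.86 and -0.50 and passed in 3, with adjusted p between 0.00812 and 0.231. Without si-uc.323 replicate 2 the whole array had 2211 probes called higher and 1027 lower, against 766 and 529 with all arrays. It also passed with array weights (3635 probes higher and 2907 lower) and with a trended, robust variance prior (1222 and 929). Nothing is read from these passes. Of the marker lists, the summed endothelial intensity was 560 to 861% with si-uc.323 and 1107 to 1247% with si-scramble, over 6 markers on the array of which 5 were above background on all arrays and none was below it on all. The skeletal muscle lineage markers summed to 311 to 327% with si-uc.323 and 544 to 574% with si-scramble, with Pax7 above background on no array. The fibroblast, smooth muscle and pericyte, leukocyte, erythroid, and neural and Schwann sums overlapped between the groups. The cardiomyocyte sums, given above, lay lower with si-uc.323. A sum weighs its brightest probes most. Of single markers, 1 cardiomyocyte, 1 erythroid and 2 skeletal muscle lineage genes were called lower. In the fibroblast list 1 was called higher, and in the endothelial list 0 were called, beside 6.3% of all named genes. The part of any marker group in the Capn6 values was not tested.

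The genes whose values over the 6 arrays were most like those of Capn6, among 11101 named genes above background on all arrays, included Atp2a1, C4bpb, Ces2b and Testin, with Pearson r of 0.997, 0.995, 0.995 and 0.991. Atp2a1 encodes the calcium pump of fast skeletal muscle. These r values span both groups and share the same 6 arrays and their scaling, and 362 genes had an r above 0.9, so they are descriptions only.

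**Figure D3:**
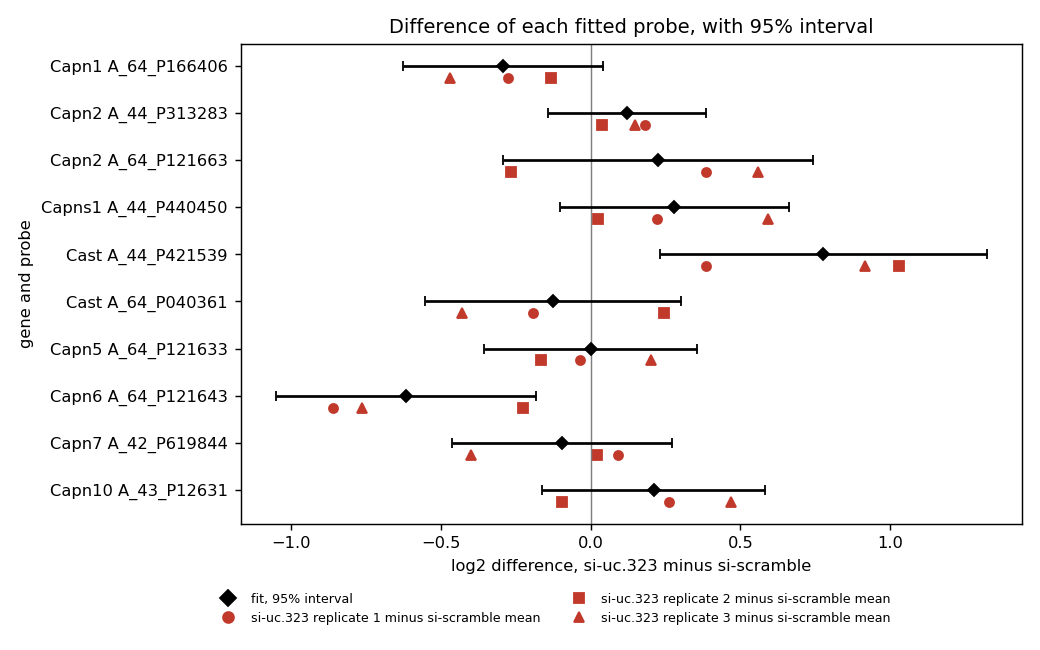
Log2 difference, si-uc.323 minus si-scramble, of the 10 fitted probes, with black diamonds for the fit and bars for its 95% interval, and red symbols for each si-uc.323 array minus the si-scramble mean. The intervals of 8 probes include 0, and those of the dimmer Cast probe (0.23 to 1.32) and of Capn6 (-1.05 to -0.18) do not.

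Capn7, whose human protein binds the ESCRT machinery that remodels membranes, was spotted 10 times on each array. Its probe read 523, 498 and 372% on the si-uc.323 arrays and 505, 452 and 518% on the si-scramble arrays, a log2 difference of -0.10 ± 0.16 (SE; 95% interval -0.46 to 0.27). The value of si-uc.323 replicate 3 was the lowest of the 6. Within an array the spots varied by 2.12 to 4.46% (coefficient of variation), and the spots of si-uc.323 replicate 3 lay between 353 and 397%. The lowest spot on any other array read 426%, so the low value of that array exceeded the spread between spots. Between arrays the coefficient of variation was 17.4% with si-uc.323 and 7.12% with si-scramble. Without si-uc.323 replicate 3 the log2 difference was 0.06, and on slide 1 it was 0.09.

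Capn10, an atypical calpain linked to diabetes by human genetics, read 8.27, 6.44 and 9.53% with si-uc.323 and 6.64, 6.94 and 7.11% with si-scramble. The si-uc.323 values lay on both sides of the controls, which differed little among themselves (coefficient of variation 3.43%, against 19.2% in si-uc.323). The log2 difference was 0.21 ± 0.16 (SE; 95% interval -0.16 to 0.58), and with normexp background correction it was -0.01.

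Capn5, which is mutated in a human inherited eye disease, also had 2 probes. The probe A_64_P121633 read 2.43, 2.22 and 2.87% with si-uc.323 and 2.30, 2.90 and 2.32% with si-scramble, and its log2 difference was 0.00 ± 0.15 (SE; 95% interval -0.35 to 0.35). The groups covered nearly the same range, and the interval allows a fold change of 0.782 to 1.28. Its other probe, A_64_P121634, read 0.355, 0.383 and 1.04% with si-uc.323 and 0.639, 0.444 and 0.504% with si-scramble, and was well above background on si-uc.323 replicate 3 only.

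Capn3, the skeletal muscle calpain whose loss causes a limb-girdle muscular dystrophy in humans, was at the edge of detection. Spotted 10 times on each array, of which 8 to 10 spots were used after outlier flags, it averaged 0.701, 0.633 and 1.05% on the si-uc.323 arrays and 0.6415, 0.552 and 0.659% on the si-scramble arrays. On si-uc.323 replicate 3, the array with the most probes above background, 8 of 10 spots were well above background, on replicate 2 it was 2 of 10, and on the other 4 arrays 0. No fold is given for Capn3 or for the dim Capn5 probe, since neither was well above background on all arrays of any group.

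The si-uc.323 arrays varied more among themselves than the controls. Over the 10 fitted probes the median SD of the log2 values was 0.29 with si-uc.323 and 0.12 with si-scramble, and over all fitted probes it was 0.22 with si-uc.323 and 0.11 with si-scramble. The SD was larger with si-uc.323 for 6 of the 10 probes, and for 80.8% of all fitted probes. The si-uc.323 array farthest from the median of its group was replicate 2 for 5 probes, replicate 3 for 4 and replicate 1 for 1, while the same was so for 35.5%, 39.2% and 25.3% of all fitted probes. Replicate 2 was the lowest si-uc.323 array for both Capn2 probes, for Capns1, for Capn10 and for the brighter Capn5 probe, and the highest for Capn1, Capn6 and both Cast probes. On slide 1, where si-uc.323 replicate 1 stands alone, the log2 difference was -0.28 for Capn1, 0.18 and 0.38 for the Capn2 probes and 0.26 for Capn10, each of the sign found over all arrays. Capn7 changed sign there (0.09 against -0.10), and the dimmer Cast probe read 0.38 against 0.78.

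Beyond the listed genes, 9 other members of the calpain family were looked for; 6 were matched to probes here, and 4 of these could be fitted. Capn13 was the 1 called among them, and 6.3% of all named genes were called by their brightest probe. It read 1.38, 1.40 and 1.21% with si-uc.323 and 2.40, 2.80 and 2.97% with si-scramble, and the groups did not overlap. Its log2 difference was -1.03 ± 0.13 (SE; adjusted p = 0.0195 from limma). These are dim signals, well above background on 2 of the 3 si-uc.323 arrays and on all si-scramble arrays, so Capn13 entered the fit only through the group in which it was higher, and nothing is read from its call. It was not fitted under the filter that asks for all 6 arrays. With normexp background correction the log2 difference was -0.54 and did not pass (adjusted p = 0.0553 from limma). Without si-scramble replicate 1, 2 or 3 its adjusted p from limma was 0.0972, 0.0849 or 0.124, in fits that called few or no probes of the whole array. The brighter probe of Capn15, whose fly relative is known from optic lobe development, read 60.7, 51.9 and 58.9% with si-uc.323 and 66.8, 78.1 and 74.3% with si-scramble. Its log2 difference was -0.35 ± 0.12 and did not pass, and its dim probe read 0.18 ± 0.18. Capn8 (-0.56 ± 0.16) and the second small subunit gene Capns2 (-0.25 ± 0.13) did not pass either; Capn8 also entered through si-scramble only. Capn11 and Capn12 were not well above background on all arrays of any group.

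Genes that work with calpains, that calpains are known to cut or that belong to neighbouring protease systems were counted in 7 lists, the other family members included. Of their 68 measured genes 4 were called, 5.88%, near the 6.3% of all named genes, so the count is not a result about these lists. Of 16 structural substrates measured, 1 fell and none rose, with a median log2 difference of 0.03, beside 0.02 for all 11580 named genes, of which 383 rose (3.31%) and 346 fell (2.99%). The one that fell was Jph2, junctophilin, a calpain substrate that holds the sarcoplasmic reticulum against the T-tubule. It read 22.2, 18.2 and 23.4% with si-uc.323 and 29.3, 40.2 and 35.4% with si-scramble, a log2 difference of -0.71 ± 0.16 (SE; adjusted p = 0.0486 from limma). Its groups did not overlap, and without si-scramble replicate 2 the difference was -0.61 (adjusted p = 0.158 from limma). It also failed to pass without any one of the other 5 arrays, with adjusted p from limma between 0.0551 and 0.192. Without 1 si-scramble array few or no probes of the whole array were called (0 to 7 higher and 0 to 12 lower).

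Of 14 measured signalling substrates, 1 rose and none fell, with a median of 0.16. Bax, a pore-forming protein of the mitochondrial path to cell death, read 64.4, 62.1 and 81.8% with si-uc.323 and 43.3, 38.6 and 40.4% with si-scramble. All si-uc.323 arrays lay above all controls, and the log2 difference was 0.76 ± 0.14 (SE; adjusted p = 0.0327 from limma). The call was lost without any one si-scramble array (adjusted p between 0.12 and 0.157 from limma) and held without any one si-uc.323 array. Without 1 si-scramble array, 0 to 7 probes of the whole array were called higher and 0 to 12 lower, so this loss is not particular to Bax. In the list of caspases and their inhibitors 1 of 12 rose and none fell (median 0.10). Casp12, a caspase of the endoplasmic reticulum in rodents, read 44.0, 38.9 and 48.5% with si-uc.323 and 27.8, 30.4 and 29.4% with si-scramble, a log2 difference of 0.58 ± 0.12 (SE; adjusted p = 0.0433 from limma) between groups that did not overlap. It passed without si-uc.323 replicate 2 and not without any other single array (adjusted p from limma between 0.0685 and 0.184). Casp2, an initiator caspase named here after its values were seen, had probes that disagreed. Its brightest probe, which stands for it in the count, differed by -0.15 ± 0.11 and did not pass, while its dimmest, A_64_P158644, was called (0.72 ± 0.13, adjusted p = 0.0327 from limma). The dimmest probe read 4.71, 5.64 and 6.06% with si-uc.323 and 3.42, 3.42 and 3.10% with si-scramble, and a further probe differed by 0.11 ± 0.16. With the slide as a block, which rests on si-uc.323 replicate 1, Capn13, Jph2, Bax and Casp12 kept their sign and did not pass, with adjusted p from limma of 0.159, 0.286, 0.242 and 0.2496.

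The remaining lists had no gene past the test. Among 5 measured partners and substrates of Capn3 the lowest adjusted p was that of Ankrd1, a stretch-responsive ankyrin repeat protein of the titin spring, with 1237, 1092 and 1540% on the si-uc.323 arrays and 878, 843 and 916% on the si-scramble arrays. Its log2 difference was 0.54 ± 0.15, and that of Dysf, the membrane repair protein dysferlin, was 0.50 ± 0.18. Among 8 membrane repair genes Anxa5, which encodes a calcium-dependent lipid binder, differed by 0.76 ± 0.22. Of 12 cathepsins and cystatins, the proteases of the lysosome and their inhibitors, Cstb (-0.41 ± 0.11) and Ctsk (-0.57 ± 0.18) had the lowest adjusted p. The list medians were 0.28, 0.17 and -0.06 for the Capn3 partners, the membrane repair genes and the cathepsins with cystatins. Dysf is in 3 of the lists, and the unadjusted p was under 0.05 for 2 of the 5 Capn3 partners, 2 of the 8 membrane repair genes and 6 of the 12 cathepsins and cystatins, beside 30% of all named genes.

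**Figure D4:**
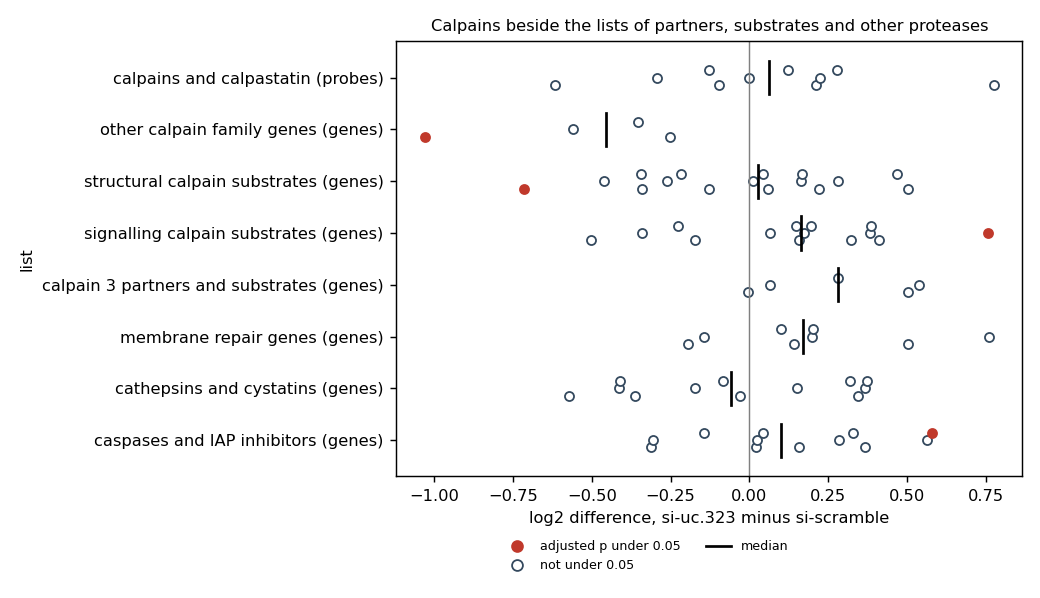
Log2 difference, si-uc.323 minus si-scramble, of the 10 fitted calpain and calpastatin probes and of the genes of 7 lists (1 probe per gene), with filled red circles for an adjusted p under 0.05 and a black line at each median. The 4 filled circles are Capn13 (-1.03) and Jph2 (-0.71) on the left of 0, and Bax (0.76) and Casp12 (0.58) on the right; Capn13 passed the background filter through si-scramble only.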

How the data were processed

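Total RNA of 6 myocyte cultures was labelled with Cy3 and hybridised to Agilent arrays of design 028282, 1 per culture, and the scans were read with Feature Extraction (version 11.0.1.1, as the submitters' processing notes give it). The deposited intensity of a spot is background-subtracted and detrended within its array, per the file headers. The scaling of the deposited log2 values in the series table is not given in the sources used here. Its columns correlated at 0.99987 or more with the scanner values and had medians of 6.519, and it served as an alternative. Its member differences were nearly those of quantile normalization, with -0.634 for Capn6 in both, so these alternatives are not separate checks. The number of arrays, 3 per group, limits the precision.

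Control spots and spots flagged as outliers (322 to 594 of 42877) were left out, log2 intensities were shifted by each array's 75th percentile (1182 to 1775 intensity units), and repeat spots were averaged per probe. The filter asked for a probe to exceed background clearly on every array of either group, and 40 with a missing value were dropped. Probes were named through RefSeq accessions (assembly GRCr8); 18005 of 30367 matched 1 gene. In R 4.3.3, limma 3.58.1 (lmFit, eBayes) was run on 21994 probes, without covariates, after a check on simulated data, with an adjusted p threshold of 0.05. The brightest tested probe stood for a gene in the lists. Named genes were all members, up to 4 called genes of a list or otherwise the 2 with the lowest adjusted p, and the 5 genes most like the member whose brightest probe differed most (Capn6), of which 1 is not reported here; the other measured calpain family genes are given so that the family is whole. Members and lists were chosen with earlier results of these data known. Alternatives covered background correction (normexp on median signals), normalization, filters, probe choice, variance priors, array weights, blocks and single arrays. Figures used matplotlib 3.10.9 in Python 3.11.15.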

Additional observations from a re-analysis of the deposited data

How the results depend on the processing

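Beside the 766 higher and 529 lower probes and the list genes (2 higher, 2 lower), the counts moved by more than 1.5 times as follows. Lower probes numbered 966 with quantile normalization, 836 with a median shift, 1114 with cyclic loess and 958 on the authors' series values. List genes that were lower numbered 4 with normexp and with cyclic loess, 5 with a median shift (and 1 higher) and 1 with the filter over all arrays. A trended, robust prior gave 1222 higher and 929 lower probes and 5 lower list genes, and array weights gave 3635 and 2907 probes and 14 higher and 13 lower list genes. With either of these 1 member probe, that of Capn6, was called lower. Keeping dim probes gave 0 calls of any kind (5676 probes at an unadjusted p under 0.05), as did slide 1 alone (6578), and the slide block gave 4 higher and 5 lower probes and 0 list genes. Leaving out 1 array gave 0 to 2211 higher and 0 to 1027 lower probes, 0 to 10 higher and 0 to 1 lower list genes and 0 to 1 lower member probes, and without si-scramble replicate 1 or 3 no probe was called (4314 and 3804 at an unadjusted p under 0.05). The causes were not tested. The replicate block gave 536 higher and 268 lower probes, 1 higher and 1 lower list gene and no member call; the deviations of same-numbered arrays correlated at 0.20, 0.39 and -0.11, so the numbers were not taken as pairs.

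Filters, the variance prior and the replicate block leave a log2 difference unchanged by design, as does probe choice for a gene with 1 probe. In those settings only the call could change, so the count that kept direction does not measure robustness. The slide block and slide 1 alone gave the same differences. Of 198 member values under the alternatives, 184 kept their direction and call, 3 (all Capn6) newly passed, and 11 changed sign, none of which passed. These were Capn2 A_44_P313283 with a median shift (-0.011); Cast A_64_P040361 as the mean of both probes (0.325) and without si-uc.323 replicate 3 (-0.312 to 0.025 over single arrays left out); Capn5 A_64_P121633 with array weights (0.033) and without single arrays (-0.102 to 0.109); Capn7 with the slide block, on slide 1 (0.091) and without si-uc.323 replicate 3 (-0.189 to 0.056); and Capn10 with normexp (-0.013). The median of all fitted probes was 0.057, against -0.062 with normexp and -0.076 with a median shift, so signs of smaller differences depend on the scaling. Signal near background limits Capn3, Capn5 and Capn13.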
